A study of Mus musculus with 4 samples.

Results

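A set of 10 genes that are imprinted in the mouse and act on growth was followed through single cells of the embryonic nose: the ligands Dlk1 and Igf2, the signalling adaptor Grb10, the cell-cycle inhibitor Cdkn1c, the transcription regulators Plagl1 and Peg3, Ndn, the hydrolase-like gene Mest, and the long non-coding RNAs Meg3 and H19. They are 10 of the 32285 genes in the count matrices and were picked by symbol. The choice was made with earlier results of these data in view, among them how the genes stood in mural cells against mesenchyme and in control against mutant libraries, so values for those 2 contrasts are given as descriptions. All 10 matched an Ensembl identifier of the annotation.

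An imprinted gene is expressed mainly from the chromosome inherited from one parent, because a nearby control region carries a DNA methylation mark set in the egg or the sperm. The genes expressed from the paternal copy tend to favour growth of the embryo, as Igf2 does through the insulin-like growth factor receptor, and several expressed from the maternal copy restrain it, as Cdkn1c and Grb10 do. Many of them are high in growing embryonic mesoderm and cartilage and are shut down after birth. Parental origin was not measured here, since the matrices give 1 count per gene.

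The noses of mouse embryos were taken whole at embryonic day 14.5, dissociated with papain and collagenase, frozen, and profiled with droplet sequencing of the 3-prime ends of poly-adenylated RNA. There were 2 control libraries, titled WT, and 2 mutant libraries, titled Sox10Cre/Yap/Taz cKO, which carry the transgene Tg(Sox10-cre)1Wdr, a Cre recombinase under the promoter of Sox10, a gene of neural crest and glia. The mutants are Sox10cre;yap flox/WT;taz flox/flox in the series design, so 1 Yap allele stays intact even where Cre acts. For the controls the sources disagree: the sample labels give C57Bl/6J, and the series design gives yap flox/flox;taz flox/flox without Cre. Yap and Taz are co-activators of TEAD transcription factors. The labels speak of 2 noses of each kind but do not tie a library to an embryo, and they name 2 providers without saying which made which library, so provider and genotype cannot be told apart and p-values measure the spread between these libraries.

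Filtering to 500 or more genes and no more than 10% mitochondrial counts a cell left 13739 cells, with 2474 to 4195 a library and a median of 5282 to 8549 unique molecular identifiers (UMIs) a cell. A UMI marks 1 captured RNA molecule. Libraries shared 4 to 8 cell barcodes a pair. Each cell was placed in a class when at least 3 markers of that class had a UMI, and 11 classes are shown. In every class the genes that led by fold included its own markers and none from the other lists, although mesenchyme had only 1 of its own, Twist2, among its first 10. Cells were placed by these same markers, and cells passing lists of unrelated classes were left out. The leading markers therefore follow from the gate and are no separate check of it. The neuronal class is the least sharply drawn: 76 of 118, 57 of 79, 64 of 98 and 55 of 82 of its cells (control 1, control 2, mutant 1, mutant 2) have just 3 neuronal markers, and its mesenchymal markers summed to 5040 to 6253 CPM against 2364 to 2966 CPM for the neuronal ones. At 4 markers 46, 23, 35 and 28 cells are left, so every value given for neuronal cells is one for cells that pass this gate. Levels are in CPM, a gene's UMIs scaled to 1000000 UMIs of that class in that library. With 3-prime tags a level is comparable between classes for the same gene, and no ranking between different genes is drawn. Yap1 over all cells stood at 65.0 and 65.2 CPM in controls against 56.4 and 56.0 CPM in mutants, and Wwtr1, which encodes TAZ, at 118 and 145 CPM against 123 and 132 CPM. Both are read from tags at the 3-prime end, and whether those tags lie in the floxed part was not analysed here, so these values do not check the labels.

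Several of the genes sit side by side in the genome (GRCm38, GENCODE M21). Dlk1, at chr12:109452823-109463336 on the plus strand, ends 77.7 kb before Meg3, at chr12:109541001-109571726 on the same strand. On the minus strand of chromosome 7, H19 lies at chr7:142575529-142578143 and Igf2 at chr7:142650766-142666816, 72.6 kb apart, and Cdkn1c lies at chr7:143458339-143461050 in the neighbouring imprinted domain, 792 kb from Igf2. Peg3 (chr7:6703892-6730431, minus) and Ndn (chr7:62346569-62350262, plus) are elsewhere on the same chromosome. Grb10 is at chr11:11930508-12038683 (minus), Plagl1 at chr10:13060504-13131694 (plus) and Mest at chr6:30723547-30748465 (plus). Meg3 and H19 are annotated as long intergenic RNAs and the other 8 as protein-coding.

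Mest, H19, Igf2 and Meg3 also carry microRNAs on their own strand, which the 3-prime libraries do not measure. One arm of each is shown because a change in the host RNA is what the counts below report. The capitals mark the seed, bases 2 to 8, and the sequences are those of RefSeq on GRCm38.p6.
mmu-miR-335-5p, within Mest, chr6:30741314-30741336, plus strand: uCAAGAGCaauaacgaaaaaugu
mmu-miR-675-5p, within H19, chr7:142577112-142577133, minus strand: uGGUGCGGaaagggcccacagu
mmu-miR-483-5p, within Igf2, chr7:142654968-142654989, minus strand: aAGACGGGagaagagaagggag
mmu-miR-770-5p, within Meg3, chr12:109563710-109563731, plus strand: aGCACCACgugucugggccacg
No 2 of these seeds are alike.

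RefSeq promoters of 300 bases, 250 before to 50 after an annotated start, were found for 8 of the 10 genes, with 15 starts. They were searched on both strands for GGAATG, the core that TEAD factors bind, and its reverse CATTCC, which do not overlap each other. A match was present in 4 of the 15, namely 3 of the 4 Igf2 starts and the Peg3 start, against 14.7% of all 32851 promoters of that length. The promoters of Dlk1, Peg3 and the second Igf2 start are shown on their coding strands with the matches in capitals, Dlk1 because many of the values below concern it, and the others because they hold matches.
Dlk1, chr12:109452573-109452872, plus strand: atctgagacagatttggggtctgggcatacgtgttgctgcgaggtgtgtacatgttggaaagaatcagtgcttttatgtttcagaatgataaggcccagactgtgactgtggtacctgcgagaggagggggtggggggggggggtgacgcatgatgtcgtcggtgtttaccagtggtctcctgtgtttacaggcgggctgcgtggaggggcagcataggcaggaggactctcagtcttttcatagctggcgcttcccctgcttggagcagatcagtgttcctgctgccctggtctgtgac
Peg3, chr7:6730370-6730669, minus strand: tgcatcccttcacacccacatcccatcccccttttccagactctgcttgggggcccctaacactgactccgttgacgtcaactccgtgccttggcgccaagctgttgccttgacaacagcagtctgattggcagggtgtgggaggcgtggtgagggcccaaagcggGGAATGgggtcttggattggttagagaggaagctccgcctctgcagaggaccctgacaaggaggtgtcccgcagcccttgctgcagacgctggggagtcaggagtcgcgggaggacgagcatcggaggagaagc
Igf2, chr7:142661222-142661521, minus strand: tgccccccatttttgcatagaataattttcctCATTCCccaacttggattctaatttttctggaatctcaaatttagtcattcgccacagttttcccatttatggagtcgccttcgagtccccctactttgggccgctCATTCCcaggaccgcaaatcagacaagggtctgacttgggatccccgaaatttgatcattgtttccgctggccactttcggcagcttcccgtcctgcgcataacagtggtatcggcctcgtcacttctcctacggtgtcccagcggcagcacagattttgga
The window of Dlk1 holds no match to these letters, that of Peg3 holds 1 and that of Igf2 holds 2. A match describes the letters only.

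The genes were not uniform across the nose. Each differed by 14.4-fold (Ndn) to 61.0-fold (Dlk1) between its highest and its lowest class mean, and most were high in mesenchyme, mural cells, cartilage or endothelium and low in macrophages.

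**Figure D1:**
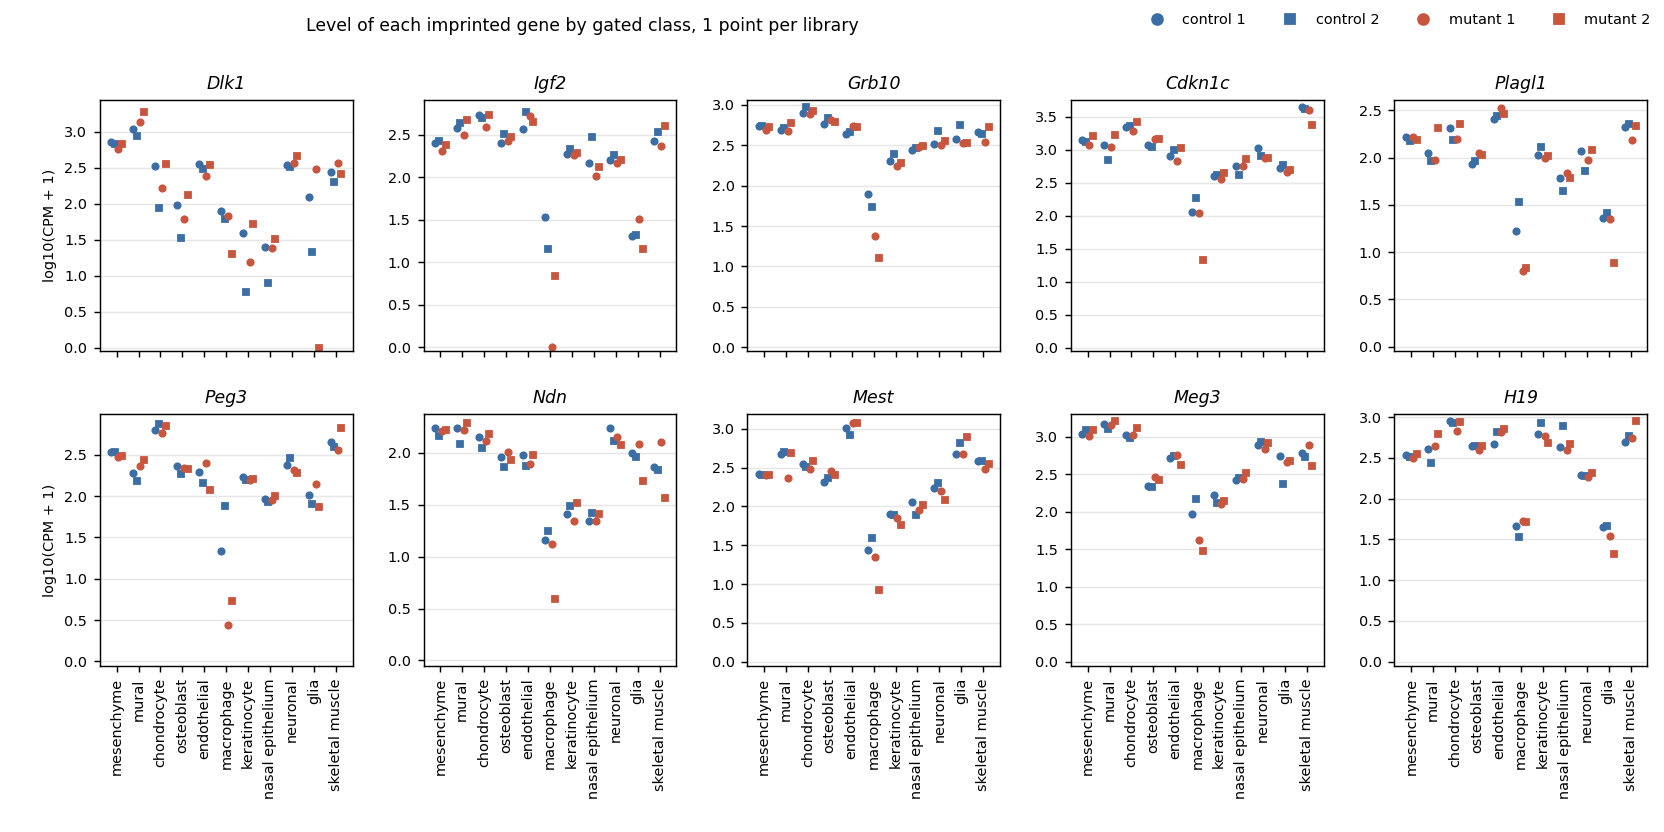
Level of each of the 10 genes in 11 gated classes, 1 point for each of the 4 libraries (blue controls, red mutants; circles replicate 1, squares replicate 2), on a scale of log10(CPM + 1). Macrophages hold the lowest mean for 8 of the 10 genes, and Dlk1 spans the widest range, from 1297 CPM in mural cells to 21.3 CPM in nasal epithelium.

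Dlk1 encodes a membrane-bound and shed ligand related to Notch ligands that holds back differentiation of fat and other mesenchymal cells. In mural cells, the pericytes and smooth muscle of vessel walls, it stood at 1075 and 862 CPM in controls against 1360 and 1893 CPM in mutants. In mesenchyme it stood at 727 and 668 CPM in controls against 580 and 668 CPM in mutants. The 4 mural values lay above the 4 mesenchymal ones, and those lay above every value in the other classes. Cells of the neuronal gate followed at 372 ± 58.9 CPM (mean ± SD, n = 4 libraries) and endothelium at 310 ± 51.1, which overlapped. With 4 neuronal markers required, the former held 65.2 and 358 CPM in controls against 154 and 66.8 CPM in mutants. Chondrocytes held 327 and 87.1 CPM in controls against 163 and 352 CPM in mutants, so both groups spread widely. Keratinocytes (27.1 ± 21.0 CPM) and nasal epithelium (21.3 ± 10.3 CPM) were lowest. In glia Dlk1 ran from 299 CPM in mutant 1 to 0 of 151980 UMIs in mutant 2, a zero that allows up to 19.7 CPM at 3 counts.

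Igf2, the fetal insulin-like growth factor, was highest in chondrocytes, at 544 and 504 CPM in controls against 385 and 536 CPM in mutants. Endothelium held 374 and 592 CPM against 519 and 440 CPM, so these leading classes overlapped. Mural cells (398 ± 69.1 CPM) overlapped with endothelium, and mesenchyme held 240 CPM on average, from 201 to 265. Neuronal cells, at 146 to 180 CPM, were separated from glia at 13.2 to 30.8 CPM. In macrophages the level was 32.9 and 13.2 CPM in controls against 0 and 5.85 CPM in mutants. The zero in mutant 1 allows up to 5.31 CPM.

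Grb10 encodes an adaptor that binds the insulin and insulin-like growth factor receptors and dampens their signal. Its levels in chondrocytes, 799 and 930 CPM in controls against 774 and 840 CPM in mutants, lay above those of osteoblasts at 577 and 689 against 651 and 608 CPM. Osteoblasts in turn lay above mesenchyme, which ran from 494 to 550 CPM. From mesenchyme down to neuronal cells each class overlapped the next. Keratinocytes held 203 ± 32.3 CPM and macrophages 41.2 ± 29.6 CPM.

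Cdkn1c encodes p57, an inhibitor of cyclin-dependent kinases that rises as cells leave the cycle to differentiate. Skeletal muscle cells had the highest levels, 4408 and 4177 CPM in controls against 4097 and 2390 CPM in mutants, on 12 to 31 cells a library. Chondrocytes, at 2260 and 2278 against 1924 and 2689 CPM, overlapped with the muscle of mutant 2 alone and lay above mesenchyme, at 1441 and 1314 against 1204 and 1618 CPM. Keratinocytes held 406 ± 30.8 CPM.

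Plagl1 encodes a zinc-finger transcription factor that acts on other imprinted genes. Endothelium was above every other class, at 256 and 277 CPM in controls against 335 and 288 CPM in mutants. Mesenchyme was narrow, between 149 and 166 CPM. Mural cells lay between 90.5 and 112 CPM in 3 libraries and at 204 CPM in mutant 2.

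Peg3 encodes a zinc-finger protein linked to growth and maternal behaviour. It led in chondrocytes, at 629 and 742 CPM in controls against 574 and 697 CPM in mutants, which overlapped with skeletal muscle. Mesenchyme, at 341 and 343 against 295 and 304 CPM, was below both and above all other classes. Mural cells stood at 189 and 153 CPM in controls against 233 and 272 CPM in mutants.

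Ndn encodes necdin, a MAGE-family protein first described in neurons leaving the cell cycle. Its means in mural cells (164 ± 30.4 CPM), mesenchyme (161 ± 11.7), neuronal cells (141 ± 24.2) and chondrocytes (134 ± 17.5) formed a run of overlapping neighbours. Keratinocytes and nasal epithelium, at 21.1 to 31.9 and 20.9 to 25.1 CPM, were clear of those classes.

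Mest encodes a protein of the alpha/beta hydrolase fold. Endothelium held 1037 and 827 CPM in controls against 1203 and 1202 CPM in mutants, above all other classes. Glia, with 19 to 37 cells a library, came next at 466 to 790 CPM. Mesenchyme varied little, from 255 to 263 CPM. In mural cells 3 libraries lay between 468 and 500 CPM and mutant 1 at 231 CPM.

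Meg3, the maternally expressed RNA next to Dlk1, followed Dlk1 at the top of its order. Mural cells held 1456 and 1244 CPM in controls against 1408 and 1628 CPM in mutants, all above mesenchyme at 1093 and 1221 against 1017 and 1230 CPM. Chondrocytes (1086 ± 142 CPM) overlapped with mesenchyme. Osteoblasts, at 243 ± 35.3 CPM, and keratinocytes, at 139 ± 18.0 CPM, stood low.

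H19, the maternally expressed RNA next to Igf2, differed from the others in being high in surface epithelium. Chondrocytes led at 894 and 853 CPM in controls against 666 and 869 CPM in mutants. Keratinocytes followed, at 626 and 834 against 590 and 479 CPM, and overlapped with chondrocytes. Mesenchyme, at 331 ± 19.4 CPM, was separated from osteoblasts above it and from neuronal cells at 193 ± 8.76 CPM below it. Glia (35.8 ± 11.8 CPM) and macrophages (45.2 ± 8.57 CPM) were lowest.

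Likeness was measured as Pearson r of log2(CPM + 10) over 9 classes (those where each library has 20 or more cells), each class averaged over the 4 libraries, among 10037 genes. The nearest gene to Meg3 was Rian (r = 0.987), another non-coding RNA of the same imprinted domain. Grb10 and Cdkn1c were each other's nearest (r = 0.987). Mest was nearest to Gnas (r = 0.978), which is imprinted too, and the second nearest to Igf2 was Airn (r = 0.971), the imprinted antisense RNA of Igf2r. The nearest to Dlk1 was C1qtnf2 (r = 0.983), to Igf2 Nynrin (0.980), to Plagl1 Ephb4 (0.981), to Peg3 Trim23 (0.981), to Ndn Gria4 (0.985) and to H19 Ddb1 (0.967). These are 9 points that share libraries, and they are given as a description.

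Mesenchyme was the largest class, with 9105 cells, and the genes were spread unequally over its cells. Each cell was thinned to 2000 UMIs, leaving out 49 to 90 shallower cells a library. Dlk1 then had a variance 4.83 to 6.88 times its mean, and the tenth of cells with most Dlk1 held 58.4% to 67.2% of its UMIs. It had a UMI in 39.7%, 38.2%, 32.5% and 39.0% of cells of control 1, control 2, mutant 1 and mutant 2, where counts spread at random over cells at the same mean would leave 22.2% to 32.6% of cells without one and 60.3% to 67.5% were without. Unthinned, the shares were 54.7%, 54.4%, 48.0% and 51.2%. In macrophages, the class with the lowest levels of most of these genes, 3.70%, 5.45%, 2.17% and 1.18% of thinned cells had a Dlk1 UMI. Median depths were 4842 to 7994 UMIs in mesenchyme and 7520 to 9871 in macrophages before thinning.

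Ndn had a variance 1.11 to 1.20 times its mean in mesenchyme, near the value of 1 that random spread gives. This ratio was 1.45 to 1.54 for Grb10, 1.39 to 1.58 for Peg3, 2.98 to 3.38 for Meg3 and 3.72 to 4.04 for Cdkn1c. It depends on the mean, which was 0.28 to 0.36 UMIs a cell for Ndn and 2.06 to 2.39 for Meg3. The tenth of cells with most UMIs of a gene held 47.4% to 53.7% for Ndn and 35.5% to 39.2% for Meg3. For Plagl1 that share was 63.1% to 65.8%, within the range of Dlk1. No order between the genes is read from either measure.

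Within mesenchyme most of the genes went together from cell to cell, some pairs only weakly. Of the 45 pairs, 44 had a Pearson r above 0 in all 4 libraries, across 1710 to 2696 cells at 2000 UMIs, and 15 had a mean r above 0.2. The median r over the pairs was 0.16, where that of the 10 genes with all genes compared was -0.0032. Those genes were not matched for level, and the share of other gene pairs above 0 was not computed. The lowest mean r was 0.01 for Peg3 with Ndn, followed by 0.03 for Grb10 with Ndn. Dlk1 and Meg3 had the highest, with a mean r of 0.42 and a range of 0.39 to 0.44 over libraries. Dlk1 and Cdkn1c followed at 0.36 (0.33 to 0.40), Igf2 and H19 at 0.35 (0.33 to 0.39) and Cdkn1c and H19 at 0.31 (0.27 to 0.40). The top and the third of these pairs are neighbours on chromosomes 12 and 7, and the second joins genes of different chromosomes.

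**Figure D2:**
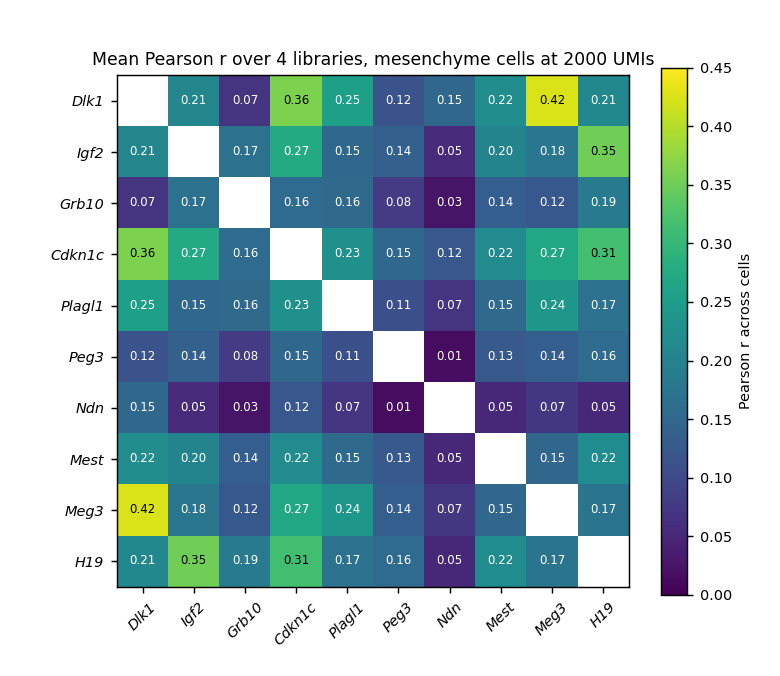
Pearson r across mesenchyme cells thinned to 2000 UMIs for each of the 45 pairs of the 10 genes, averaged over the 4 libraries; colour and number give the same value. Dlk1 with Meg3 stands highest at 0.42, and the highest value for Ndn, with Dlk1, is 0.15.

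Among 2968 other genes with a UMI in at least 10% of thinned cells, the nearest to each gene by this r was another of the 10 in every case but Grb10, whose nearest was Bnc2 (r = 0.21) with H19 second (0.19). The second nearest to Meg3 was Rian (r = 0.39). The third nearest to Dlk1 was Dcn (0.34), a matrix proteoglycan gene. H19 had 8 of the other 9 among its first 20 and Meg3 had 3. In non-cycling cells alone, a check chosen after seeing the data, the values for the leading 4 pairs were 0.42, 0.36, 0.36 and 0.31. Cells share a library and its composition, so these are descriptions, and the low values of Ndn and Peg3 are not read.

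Cycling cells were compared with non-cycling ones of the same class and library, a contrast that the choice of genes did not use. A cell was called cycling when at least 2 of 14 cell-cycle genes had a UMI after thinning to 2000 UMIs, and non-cycling when none had. In mesenchyme, 349 to 503 cells a library were cycling and 1105 to 1770 were not. All 10 imprinted genes were lower in cycling mesenchyme, each in 4 of 4 libraries, and all 10 passed the threshold of edgeR's quasi-likelihood test (adjusted p under 0.05 over 14034 genes). In the same test 20.6% of all genes were called lower and 23.1% higher. The median log2 change of the 10 genes was -0.53 and that of all genes tested was -0.02.

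Meg3 moved most. It stood at 676, 867, 569 and 809 CPM in cycling cells (libraries in the order control 1, control 2, mutant 1, mutant 2), and at 1258, 1376, 1206 and 1384 CPM in non-cycling cells. The 2 sets did not overlap, and the log2 change was -0.77 ± 0.05 (SE, edgeR adjusted p = 4.69e-09). Cdkn1c, the inhibitor of cyclin-dependent kinases, stood at 995, 906, 746 and 1216 CPM in cycling cells against 1620, 1484, 1397 and 1737 CPM, with a change of -0.62 ± 0.04 (edgeR adjusted p = 2.71e-08).

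Dlk1 fell from 823, 753, 672 and 731 CPM in non-cycling cells to 457, 515, 383 and 524 CPM, again without overlap, by a log2 change of -0.59 ± 0.05 (edgeR adjusted p = 2.35e-07). Plagl1 and H19 changed by -0.59 ± 0.05 and -0.59 ± 0.06. The growth factor Igf2 changed by -0.48 ± 0.05, from 279, 275, 233 and 256 CPM to 192, 201, 134 and 186 CPM. The smallest changes were those of Grb10 (-0.35 ± 0.03), Ndn (-0.28 ± 0.05), Peg3 (-0.24 ± 0.05) and Mest (-0.23 ± 0.07, edgeR adjusted p = 0.0103). The call of Mest was lost with mesenchyme gated at 2 markers and without mutant 2 (edgeR adjusted p = 0.0925 and 0.0568), and the other 9 genes passed in each of the 11 alternatives.

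Depth and mesenchymal markers moved with this contrast. Cycling mesenchyme cells held 7074 to 11094 UMIs a cell on average against 4995 to 7937 in non-cycling ones, and the summed level of the 10 mesenchymal markers was 5569 to 7202 CPM against 7743 to 8643 CPM, lower in the cycling cells of each library. Their part in the result was not tested. The wider lists moved less uniformly. Of 43 other imprinted genes tested, 19 fell and 5 rose, and all 8 receptors, ligands and binding proteins of the insulin-like growth factor list fell. The 4 with the smallest p were Igf1 (-1.09 ± 0.06), the binding protein gene Igfbp4 (-0.62 ± 0.05), Commd1, which rose by 0.45 ± 0.04, and Dcn (-0.44 ± 0.04). In the domain of Dlk1 and Meg3, chosen after the values were seen, Rian (-0.56 ± 0.07), Mirg (-0.55 ± 0.11), Rtl1 (-0.96 ± 0.21) and Dio3 (-1.11 ± 0.14) fell as well.

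**Figure D3:**
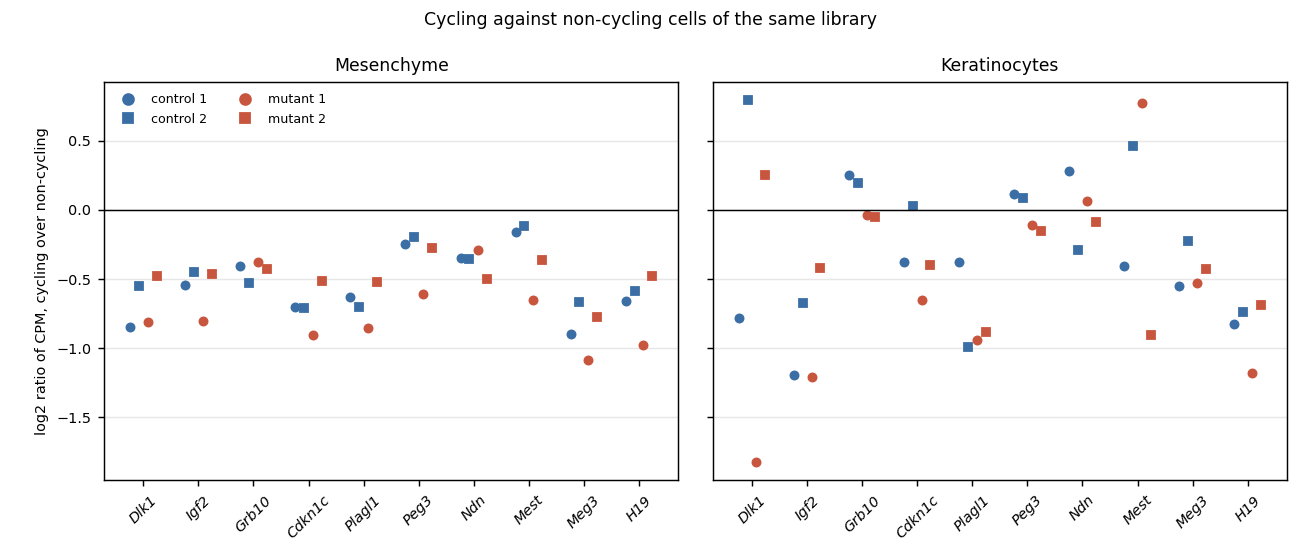
Log2 ratio of CPM in cycling over non-cycling cells of the same library for the 10 genes, in mesenchyme and in keratinocytes, 1 point for each of the 4 libraries; the line at 0 marks equal levels. All 40 mesenchyme points lie below 0, and in keratinocytes only Igf2, Plagl1, Meg3 and H19 have all 4 points below it.

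Keratinocytes gave a narrower result. With 27 to 88 cycling and 49 to 138 non-cycling cells a library, 5 of the 10 genes were lower in cycling cells and none was higher, where 7.83% of 9909 genes were called lower and 9.68% higher. The members' median log2 change was -0.39 against -0.02 for all genes. H19 stood at 480, 621, 377 and 351 CPM in cycling keratinocytes, in the same order of libraries, and at 851, 1035, 856 and 565 CPM in non-cycling ones, lower in each library, with a log2 change of -0.85 ± 0.10 (edgeR adjusted p = 2.05e-06). Igf2 changed by -0.89 ± 0.14, from 293, 270, 264 and 177 CPM to 128, 169, 114 and 132 CPM, without overlap. Plagl1 (-0.75 ± 0.15), Meg3 (-0.44 ± 0.13) and Cdkn1c (-0.35 ± 0.11) made up the rest.

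The calls of Meg3 and Cdkn1c were lost with DESeq2 and without control 1, mutant 1 or mutant 2, which left 3 genes each time. With keratinocytes gated at 2 markers 7 genes passed as lower, Dlk1 (-1.82 ± 0.32) and Ndn (-1.01 ± 0.24) being the added ones, and with cycling called at 4000 UMIs 6 did, with Dlk1 (-0.88 ± 0.25) added. Grb10 (0.11 ± 0.12), Ndn (0.04 ± 0.23), Mest (0.00 ± 0.21) and Peg3 (-0.00 ± 0.12) did not pass at the main settings, nor did Dlk1 (-0.54 ± 0.28), whose level in keratinocytes is low. Among the other imprinted genes 2 fell and 3 rose of 26, and 2 of the 8 growth factor genes fell. Those with the smallest p were H13 (-0.77 ± 0.18), Igfbp5 (-0.48 ± 0.13), Commd1 (0.47 ± 0.13) and Tssc4 (0.66 ± 0.19). Whether a gene's change differs between mesenchyme and keratinocytes was not tested. Cycling keratinocytes held 10044 to 17209 UMIs a cell against 6480 to 10190.

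Mural cells against mesenchyme is a contrast that the choice of genes drew on, so the values of the 10 genes are described without a test. Mural cells numbered 64 and 36 in the controls and 45 and 57 in the mutants. The vessel-wall markers Rgs5, Kcnj8 and Abcc9 were higher there by log2 8.72, 5.88 and 5.82. All 3 are among the markers that placed cells in the mural class, so these differences follow from the gate. The ratio of the Dlk1 level in mural cells to that in mesenchyme of the same library was 1.48, 1.29, 2.34 and 2.83. For Igf2 it was 1.48, 1.63, 1.55 and 1.96, and for Meg3 1.33, 1.02, 1.38 and 1.32. Those 3 genes were higher in mural cells in 4 of 4 libraries.

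Peg3 was lower in mural cells in 4 of 4, with ratios of 0.55, 0.44, 0.79 and 0.89. Mest was 1.78, 1.96 and 1.91 times as high in 3 libraries and 0.91 times in mutant 1. In the fit across 15010 genes the log2 differences were 0.91 ± 0.12 for Dlk1, 0.70 ± 0.09 for Igf2, 0.65 ± 0.13 for Mest, 0.35 ± 0.11 for H19, 0.31 ± 0.07 for Meg3, -0.33 ± 0.10 for Cdkn1c and -0.62 ± 0.12 for Peg3. Those of Plagl1, Grb10 and Ndn were -0.39, -0.05 and 0.01. In that fit 14.1% of all genes passed the edgeR threshold (6.81% higher, 7.26% lower), and no call is given for the 10. All genes tested split into 1022 higher and 1089 lower, 1218 and 867 with DESeq2 size factors, and 972 and 554 with DESeq2, whose median over all genes was 0.23 against -0.09. With mural cells gated at 4 markers H19 turned to -0.14, and over the alternatives Grb10 ran from -0.38 to 0.09 and Ndn from -0.05 to 0.11. Peg3 ran from -1.91 to -0.05, Cdkn1c from -0.94 to -0.003 and Plagl1 from -1.27 to -0.22, so their sizes depended on the setting. Dlk1 ran from 0.54 to 1.10, Igf2 from 0.59 to 0.77, Mest from 0.51 to 0.91 and Meg3 from 0.12 to 0.43.

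Proliferation also differed: Mki67 and Top2a were higher in mural cells by log2 0.61 ± 0.13 and 0.60 ± 0.12. Their part was not tested. Of the other imprinted genes, 8 of 45 were higher and 5 lower, and of the growth factor list 1 was higher and 2 were lower. The named ones are Igfbp7 (3.35 ± 0.14), Dcn (-1.22 ± 0.09), Airn (1.10 ± 0.09) and Igf2r (1.42 ± 0.12), the receptor that clears the Igf2 protein. Markers of other classes were counted in mural cells too. The 11 endothelial markers summed to 212 to 228 CPM against 110 to 125 CPM in mesenchyme, with 2 of the 11, Cldn5 and Tie1, at 0 in every library. The 10 glial markers summed to 97.4 and 215 CPM in controls against 48.2 and 65.8 CPM in mutants, and to 27.4 to 33.5 CPM in mesenchyme, with 6 of the 10 at 0 in every library, Sox10, Foxd3 and Erbb3 among them. The 10 mesenchymal markers summed to 4229 to 6872 CPM. Their part in the values of the 10 genes was not tested.

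Control against mutant libraries was compared in each class. The members were chosen with earlier results of this contrast known. In mesenchyme 0 of the 10 passed edgeR's adjusted threshold, nor did any of 15783 genes (0.0%). There were 1269 genes below an unadjusted p of 0.05, and DESeq2 called 54. The log2 differences of the 10 genes, mutant minus control, ran from -0.28 ± 0.11 for Igf2 to -0.01 for Cdkn1c and Ndn, with a median of -0.07 against 0.00 for all genes. Igf2, Grb10 and Peg3 were lower in both mutants than in both controls, 3 of 10 genes where 14.7% of all genes were lower and 25.6% higher without overlap. Over all kept cells edgeR called 0 of 18080 genes, 883 were below an unadjusted p of 0.05, and DESeq2 called 30, with 0 of the 10 among them. There Peg3 was lower and Ndn higher in both mutants, where 13.3% and 24.3% of all genes were.

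In mural cells, which the choice of genes drew on, Dlk1 stood at 1075 and 862 CPM in controls against 1360 and 1893 CPM in mutants, a log2 difference of 0.69 ± 0.19 in edgeR's fit. Peg3 stood at 189 and 153 against 233 and 272 CPM (0.50 ± 0.21), and H19 at 410 and 274 against 442 and 613 CPM (0.56 ± 0.23). These 3 genes were higher in mutants without overlap, a state shared by 22.9% of genes measured in mural cells, and none was lower without overlap (16.2%).

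Cdkn1c (1177 and 698 against 1092 and 1667 CPM), Plagl1 (111 and 90.5 against 94.5 and 204 CPM) and Ndn overlapped between groups. Mest was 468 and 500 CPM in controls against 231 and 490 CPM in mutants. In edgeR 0 of the 10 passed (Dlk1 adjusted p = 0.154), and 0.482% of 7257 genes did, which is 35 genes. There were 669 genes below an unadjusted p of 0.05, and DESeq2 called 11. The median log2 difference of the 10 was 0.34 and that of all genes -0.00. A Dlk1 UMI was present in 49.2%, 55.6%, 61.4% and 73.7% of mural cells thinned to 2000 UMIs, with exact 95% intervals of 36.4% to 62.1%, 38.1% to 72.1%, 45.5% to 75.6% and 60.3% to 84.5% that cover counting error alone. Unthinned, the shares were 76.6%, 83.3%, 80.0% and 87.7%.

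**Figure D4:**
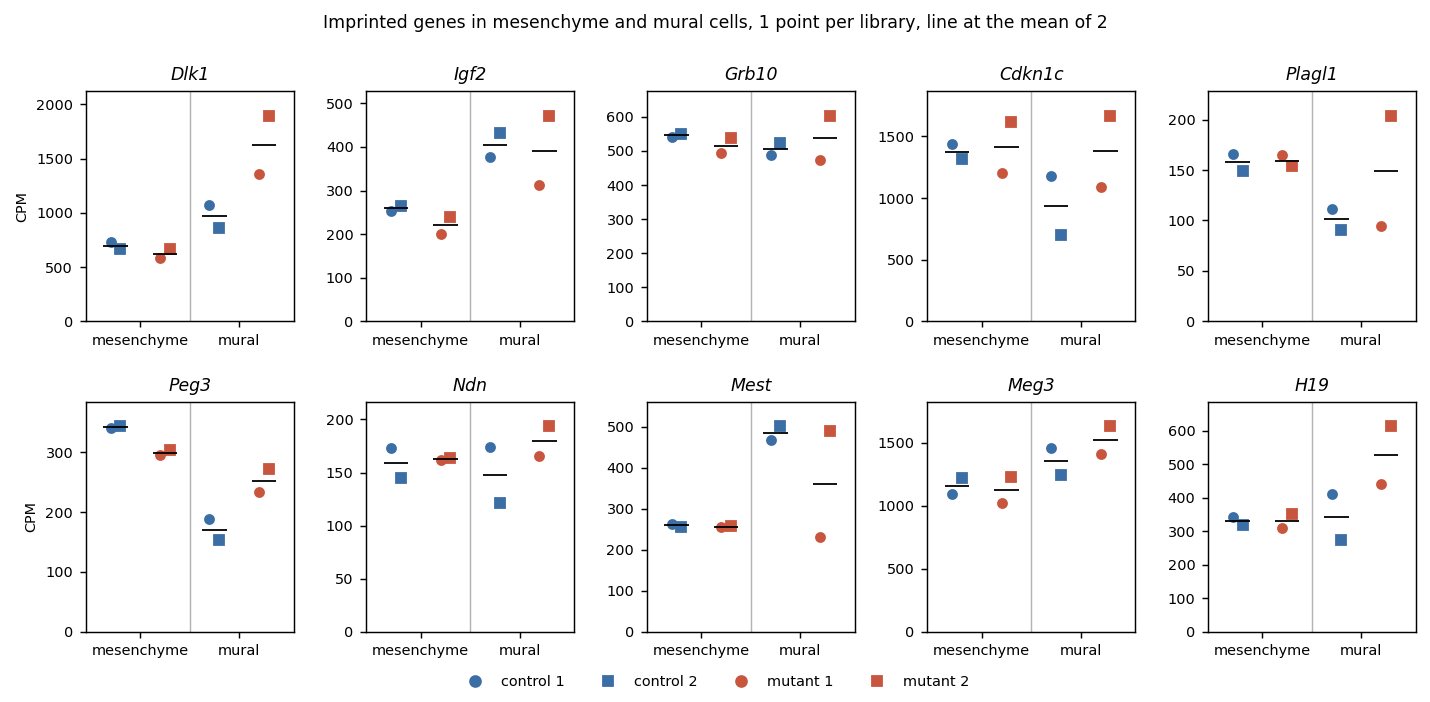
Level in CPM of the 10 genes in mesenchyme and mural cells, 1 point for each library (blue controls, red mutants) with a line at the mean of the 2 libraries. Dlk1 in mural cells lies at 862 and 1075 CPM in controls against 1360 and 1893 CPM in mutants, and in mesenchyme the groups overlap at 580 to 727 CPM.

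The outcome in mural cells moved with the gate. Calls over all genes in mural cells moved between the alternatives too, so the counts of the 10 are not read as a result about them. Requiring at least 4 markers kept 52, 31, 31 and 45 cells. At that gate 4 of the 10 genes passed (Dlk1, Peg3, H19 and Cdkn1c, all higher in mutants). Of all 6227 genes tested there, 99 passed, 51 higher and 48 lower. With at least 2 markers none of the 10 passed, and 2 of 8256 genes did, 0 of them higher. At 2 markers Dlk1 stood at 1066 and 932 CPM in controls against 923 and 1374 CPM in mutants, so the groups overlapped. Fits with a library left out rest on 1 library in a group, so their calls are not given. Genotype was compared over 2 against 2 libraries with 36 to 64 mural cells each. The change in mural cells less that in mesenchyme is described further below. The choice of genes drew on both contrasts behind it, so no call is given for the 10. Of all genes 0.853% were called (0.56% higher, 0.293% lower).

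Other genes of mural cells differed beside these. Vtn stood at 215 and 537 CPM in controls against 25.1 and 24.7 CPM in mutants, and Tbx18 at 107 and 252 against 21.2 and 39.1 CPM. Both passed the edgeR threshold (adjusted p = 0.00313 and 0.0182). The difference of Vtn was not confined to mural cells. It was -3.19 ± 0.28 (log2, SE) in mesenchyme and -4.34 ± 0.80 in endothelium (edgeR adjusted p = 0.0530 and 0.128). The change of Vtn in mural cells less that in mesenchyme was -0.61 ± 0.41 (edgeR adjusted p = 0.904). The pericyte marker Rgs5 was at 814 and 1199 CPM against 499 and 570 CPM, and the smooth-muscle gene Myh11 at 53.4 and 8.48 against 84.9 and 101 CPM. These markers moved with genotype in the same cells, and their part in the Dlk1 values was not tested. Igfbp5, a binding protein for Igf2, was the 1 gene of the wider lists that passed, at 225 and 116 CPM in controls against 818 and 463 CPM in mutants (log2 1.82 ± 0.30, edgeR adjusted p = 0.0182). Of 27 other imprinted genes 0 did. Mural cells with a UMI of Kcnj8, Abcc9 or Higd1b numbered 56 of 64 and 33 of 36 in controls against 33 of 45 and 44 of 57 in mutants. Dlk1 in this subset stood at 1137 and 906 CPM in controls against 1801 and 2051 CPM in mutants.

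In the remaining classes 0 of the 10 genes passed the edgeR threshold. Endothelium had 5 genes past it (0.058%), macrophages 3 (0.0415%), keratinocytes 2 (0.0175%) and the others 0 (0.0%). Below an unadjusted p of 0.05 there were 124 (skeletal muscle) to 647 (keratinocytes) genes, and DESeq2 called 0 to 14 in the classes where it was run, with 0 of the 10 among them. A left-out library leaves 1 library in a group, so calls from those fits are not given. In osteoblasts 4 of the 10 were higher in mutants without overlap (20.8% of all genes) and 0 lower (12.4%), with Cdkn1c at 1197 and 1106 CPM in controls against 1474 and 1483 CPM in mutants and Meg3 at 216 and 212 against 285 and 260 CPM. In endothelium 4 were higher without overlap (16.9% of all genes) and 0 lower (16.6%), among them Mest at 1037 and 827 against 1203 and 1202 CPM. Neuronal cells had 4 lower (13%) and 1 higher (20.4%), the last being Dlk1 at 338 and 323 against 371 and 455 CPM. At the gate of 4 neuronal markers 6 were lower and 0 higher, and Dlk1 overlapped. The share of all genes was not computed at that gate, so those counts are not read as a result about the 10. Keratinocytes had 4 lower (14.8%) and 0 higher (21.8%), the 4 being Grb10, Plagl1, Mest and H19. Chondrocytes had 1 higher (19.5%), Meg3, and 0 lower (12.9%). Nasal epithelium had Grb10 higher (20.8%) and Igf2 lower (14.7%). Glia had 4 lower (14.1%) and 0 higher (20.6%), and skeletal muscle had 2 lower (12.9%) and 0 higher (18.8%).

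Macrophages had 8 of the 10 genes lower in mutants without overlap (17.5% of all genes) and H19 higher (15.6%). The levels there rest on few UMIs: Grb10 had 68 and 32 UMIs in controls against 13 and 8 in mutants, which is 77.2 and 52.9 against 23.0 and 11.7 CPM. Meg3 was at 93.1 and 146 against 40.7 and 29.3 CPM. Of the 8 genes that could be tested 0 passed in edgeR, 378 of all genes were below an unadjusted p of 0.05, and DESeq2 called 5 genes. Calls with a library left out rest on 1 library in a group and are not given. Fibroblast collagens were also counted in macrophages, with Col3a1 at 169 and 117 CPM in controls against 70.8 and 14.6 CPM in mutants, while Postn was at 5.67 and 8.27 against 30.1 and 11.7 CPM. Grb10 in macrophages came to 14.2% and 9.61% of its mesenchyme level in controls and 4.66% and 2.18% in mutants, and Col3a1 to 9.30% and 6.98% against 4.60% and 0.885%. The share of Col1a2 was also lower in both mutants than in both controls, and that of Col1a1 overlapped between groups. These counts moved with how the cells were chosen. The share of all genes without overlap was not computed for the other choices of cells. The counts of the 10 that follow are therefore not read as a result about them. With high doublet scores removed, which kept 79 of 84, 59 of 63, 48 of 51 and 81 of 87 macrophages, 4 of the 10 genes were lower without overlap (Igf2, Grb10, Plagl1 and Peg3) and H19 higher, and the median log2 difference went from -1.47 over 8 genes tested to 0.05 over 7. Meg3 then stood at 34.8 and 81.9 CPM in controls against 45.1 and 4.95 CPM in mutants. With the gate at 2 markers 1 gene was lower, Grb10, and 4 were higher, with a median of 0.43 over 5 genes tested, and with 4 markers 9 were lower and 0 higher. The summed mesenchymal markers also moved between these settings. They stood at 767 and 471 CPM in controls against 388 and 124 CPM in mutants at first. With high doublet scores removed they were 107 and 218 against 424 and 23.1 CPM. They were 252 and 266 against 364 and 259 CPM at 2 markers, and 583 and 660 against 55.2 and 79.6 CPM at 4. The genes followed them in part. With high doublet scores removed, Dlk1, Cdkn1c, Ndn, Mest and H19 were highest in mutant 1, as the markers were. Igf2, Grb10, Plagl1 and Peg3 were lower in mutant 1 than in both controls, and Meg3 lay between the controls. The markers' part was not tested. Free RNA was not told apart from cells of mixed class.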

How the data were processed

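Droplet libraries of whole mouse noses at embryonic day 14.5 (2 control, 2 mutant) were analysed. The authors deposited raw UMI counts per gene and barcode, made with Cell Ranger (8.0.1 per the file headers, version 4 per the submitters' processing notes, which also name Seurat 4.3.0 and mm10). The 10 genes, the marker and gene lists and the contrasts were chosen with earlier results of these data known. All 10 genes are named, and of the wider lists up to 4 genes past the threshold with the smallest p per comparison; the 3 genes of highest r per member were computed, of which the nearest are named.

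The filter of 500 genes and 10% mitochondrial UMIs left 19767873 to 35331450 UMIs a library. A cell took the class with the largest share of its markers detected, at 3 or more. After the data were seen, 520 cells that passed lists of unrelated classes were left out, 214 passed no list, and glia and skeletal muscle, with fewer than 20 cells in 1 or more libraries, were tested as well. Scrublet's automatic call marked 0 to 3 cells a library and so had not worked; removing 56 to 163 top scores was an alternative.

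The summed UMIs of a class in each library entered the quasi-likelihood test of edgeR 4.0.16 in R 4.3.3, after filterByExpr and TMM scaling, with Benjamini-Hochberg adjustment at 0.05 over all genes tested. Library was a block in contrasts within libraries. SE was taken from the log2 change and its F statistic. The scripts were tested on simulated data. DESeq2 1.42.0, other size factors, no filter, gates at 2 and 4 markers, doublet removal, a replicate block, a pericyte subset, cycling state at 4000 UMIs and leaving out each library were alternatives. Exact binomial intervals are at 95%.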

Additional observations from a re-analysis of the deposited data

Results flagged for a closer look

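The change between control and mutant in mural cells less that in mesenchyme was taken as the interaction of class and group. It came from edgeR's quasi-likelihood fit over 15010 genes with library as a block. The choice of genes drew on both contrasts, so the values are a description and no call is given for the 10. Of all genes 0.56% were called higher. The interaction was 0.90 ± 0.12 (log2, SE) for Dlk1, 0.74 ± 0.19 for Peg3, 0.61 ± 0.16 for H19 and 0.53 ± 0.12 for Cdkn1c. It was 0.50 ± 0.24 for Plagl1, 0.23 ± 0.21 for Ndn and 0.21 ± 0.11 for Meg3. Igf2 had 0.18 ± 0.17, Grb10 0.17 ± 0.14 and Mest -0.46 ± 0.18. Dlk1 stood at 968 CPM on average in control and 1626 CPM in mutant mural cells (n = 2 libraries each), a difference that did not pass within mural cells alone (edgeR adjusted p = 0.154). With the gate at 2 markers the interaction of Dlk1 was 0.28. With the gate at 4 markers that of Plagl1 was 1.81, and with high doublet scores removed that of Mest was -0.68. Without control 2 and without mutant 2 that of Dlk1 was 0.80 and 0.74. Without mutant 2 that of Mest was -1.05. Over the 9 alternatives Peg3 ran from 0.18 to 2.10, H19 from 0.01 to 1.23 and Cdkn1c from 0.11 to 1.01. The wider lists held 5 genes past the threshold as higher: Igfbp5 (1.86), Igfbp3 (2.33), Igfbp4 (0.62), Gnas (0.39) and Igf1 (0.84). Igf1 is named outside the rule, after its value was seen. In the same fit the mural markers Rgs5 and Tbx18 were at -2.25 and -2.42 and Acta2 at 1.40, and their part was not tested.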

How the results depend on the processing

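Counts below are of the 10 genes past edgeR's adjusted threshold unless another test is named, and the cause of each move was not tested. Calls over all genes moved between the alternatives as well. Counts of the 10 in an alternative, here and above, are therefore not read as a result about these genes. For control against mutant the count was 0 in every class; with no low-count filter it was 1 in keratinocytes, 5 in macrophages, 1 in mural cells and 1 in nasal epithelium, and with gates at 4 markers it was 4 in macrophages and 4 in mural cells. For this contrast a left-out library leaves 1 library in a group, so those counts are not given. For the difference between mural cells and mesenchyme no count is given, since the choice of genes drew on both contrasts behind it. Cycling keratinocytes gave 5, 3 with DESeq2, 7 with gates at 2 markers, 6 with cycling called at 4000 UMIs, and 3 to 5 with a library left out. Over all genes the calls ran from 2 to 317 in mural cells (35), 0 to 672 in mesenchyme (0), 556 to 3216 for mural cells against mesenchyme (2111), 7 to 227 for the difference (128), 3663 to 6747 in cycling mesenchyme (6140) and 751 to 1891 in cycling keratinocytes (1735, with 959 higher and 776 lower, against 505 and 246 with DESeq2). In cycling mesenchyme 110 of 110 alternative values kept their sign.

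Signs turned as follows, as log2 values. In mural cells, mutant minus control, 108 of 120 alternative values kept their sign. Gates at 2 markers gave Peg3 -0.12, H19 -0.025, Meg3 -0.13, Ndn -0.039 and Grb10 -0.052, gates at 4 gave Igf2 0.035, and leaving out mutant 2 gave Plagl1 -0.16. Over left-out libraries Grb10 ran down to -0.13, Ndn to -0.0096 and Igf2 up to 0.16. The difference between mural cells and mesenchyme kept 84 of 90: gates at 2 markers gave Mest 0.074, Ndn -0.064 and Meg3 -0.071, leaving out mutant 1 gave Mest 0.026, and leaving out mutant 2 gave Plagl1 -0.19 and Igf2 -0.012. In mesenchyme, mutant minus control, Ndn was 0.034 and 0.011 with gates at 2 and 4 markers. Over left-out libraries Ndn ran from -0.13 to 0.12, H19 from -0.13 to 0.034, Cdkn1c from -0.23 to 0.18, Plagl1 from -0.10 to 0.054 and Meg3 from -0.22 to 0.035. For mural cells against mesenchyme 99 of 110 kept their sign; H19 was -0.14 with gates at 4 markers, and Grb10 (up to 0.094) and Ndn (down to -0.053), both near 0, turned in 5 alternatives each. In cycling keratinocytes gates at 2 markers gave Mest -0.41, Ndn -1.01 and Grb10 -0.25. Mest was also -0.0038 with DESeq2 size factors and -0.025 without high doublet scores, Peg3 0.012 with no filter, 0.0059 with DESeq2 and 0.089 with gates at 4 markers, and Ndn -0.049 with cycling called at 4000 UMIs. Over left-out libraries Mest ran from -0.34 to 0.21, Peg3 from -0.050 to 0.026 and Ndn from -0.063 to 0.11.

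Control and mutant libraries share replicate numbers, but the labels give the numbers no meaning. Deviations of same-numbered libraries correlated between -0.11 (endothelium) and 0.22 (neuronal cells) over genes, and with 2 pairs they share only a number. The replicate block gave 1 of the 10 in macrophages, 1 in mural cells (Dlk1) and 0 in the other classes, and moved all calls to 124 in mural cells, 84 in mesenchyme, 42 in osteoblasts, 32 in neuronal cells, 30 in keratinocytes, 29 in endothelium, 11 in macrophages and 3 in nasal epithelium. A crossed pairing in endothelium, chosen after seeing the data, gave 20. Depth limits the small classes: mural cells, glia and skeletal muscle held 12 to 64 cells a library.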
